A study of Mus musculus with 8 samples.

Results

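The retinoblastoma (RB) family, the E2F transcription factors they hold in check, and the D cyclins and CDK inhibitors that act on them were described in mouse tongue epithelial cells in which the E6-E7 oncogenes of human papillomavirus, an active YAP1 or both had been switched on. The 10 genes are Rb1, Rbl1, Rbl2, E2f1, E2f2, E2f7, Cdkn2a, Cdkn2c, Ccnd1 and Ccnd2. They were chosen by symbol, as the axis on which E7 acts, and were 10 of the 32285 genes in each count matrix.

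All mice carried Krt14-CreERT and LSL-rtTA, so that tamoxifen injected into the tongue released rtTA in cells that use the Krt14 promoter, which marks the basal layer, and doxycycline in the diet then switched on the tetON transgenes. Controls (N) had these regulatory alleles alone, E mice added tetON_E6-E7, Y mice added tetON_YAP1S127A, and EY mice had both. Per the study's methods every group, controls included, also carried an H2B-GFP reporter, and the animals were adult littermates balanced for age and sex. Viable cells were sorted 15 days after induction. Their 3′ ends were sequenced from droplets in 8 libraries, 2 per group, named N1 to EY2. N2 has 2 animal numbers in its title and may hold cells of both.

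In resting cells the pocket proteins RB1, p107 (Rbl1) and p130 (Rbl2) bind E2F factors and silence the genes for DNA replication. D cyclins with CDK4 or CDK6 phosphorylate the pocket proteins and release E2F, and the INK4 inhibitors p16 (Cdkn2a) and p18 (Cdkn2c) block those kinases. The E7 protein binds the pocket proteins and takes them out of this control, and Rbl1, E2f1, E2f2 and E2f7 are themselves known E2F target genes.

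Epithelial cells were those with at least 0.5% of their molecules, counted as unique molecular identifiers (UMIs), from Krt5, Krt14, Krt15, Krt13 and Krt6a and with no Ptprc, within the study's limits on genes, UMIs and mitochondrial share. There were 12957 such cells, from 170 (EY1) to 4055 (E1) per library, with 2454816 to 55154619 UMIs. All 7 epithelial markers that the gate did not use were detected in every library, with a summed level of 4839 to 7470 UMIs per 1000000 (CPM). Yap1 read 32.8 to 47.8 CPM in the 4 libraries without the YAP transgene and 166 to 452 CPM in the 4 with it. Every feature of the matrices is a mouse gene identifier, so E6-E7 could not be checked. Summed transcripts of 19 immune genes within the epithelial gate, all 19 detected in both EY libraries, were at 102 to 338 CPM in N, E and Y, 694 CPM in EY2 and 2372 CPM in EY1. S100a8 and S100a9 made up 592 CPM of this in EY2 and 2054 CPM in EY1, and the other 17 genes summed to 81.4 to 97.9 CPM in N and E, 220 and 144 CPM in Y1 and Y2, 318 CPM in EY1 and 102 CPM in EY2. Of 6 fibroblast genes, Dcn alone read 1099 and 1223 CPM in N, 970 and 720 CPM in E, 805 and 336 CPM in Y, and 252 and 27.0 CPM in EY. The other 5, among them the collagens Col1a1, Col1a2 and Col3a1, summed to 0.166 to 5.78 CPM in every library, and Lum was at 0 in both EY libraries. Endothelial genes summed to at most 0.572 CPM, melanocyte genes to at most 1.03 CPM, muscle genes to 4.12 to 7.74 CPM and red cell genes to 1.73 to 679 CPM. Cycling cells, with at least 2 UMIs of 12 G2/M genes after each cell was thinned to 2000 UMIs, were 18.1 to 33.7% of epithelial cells in 7 libraries and 61.8% in EY2. The limits of 5500 genes and 30000 UMIs removed 2.10 to 3.11% of keratin-gated cells in N1 and E1 and 17.7 to 64.7% in the other 6. Their part in the results below was not tested unless a value is given. Any 2 libraries shared 2 to 19 cell barcodes, at most 0.393% of the smaller one.

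The members span a wide range of levels in epithelial cells. One molecule is counted once whatever its transcript's length, so CPM compares molecules and not bases, although capture at the 3′ end can differ between genes. Ccnd2 (mean 281 ± 69.9 CPM, SD, n = 8 libraries) and Ccnd1 (251 ± 109 CPM) led. Rbl1 (22.6 ± 5.50 CPM) and Rb1 (22.0 ± 4.06 CPM) followed, then Cdkn2c (11.7 ± 5.96 CPM), E2f1 (11.4 ± 6.34 CPM), Rbl2 (9.79 ± 2.79 CPM), E2f2 (9.65 ± 3.42 CPM) and E2f7 (6.84 ± 6.35 CPM). Cdkn2a came last at 0.194 ± 0.160 CPM. Neighbours differed by less than their SD over libraries within the D cyclins, within Rbl1 and Rb1, and from Cdkn2c to E2f7. The ranges of the D cyclins (130 to 428 CPM) and of the pocket proteins Rb1 and Rbl1 (14.9 to 32.9 CPM) did not overlap.

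**Figure D1:**
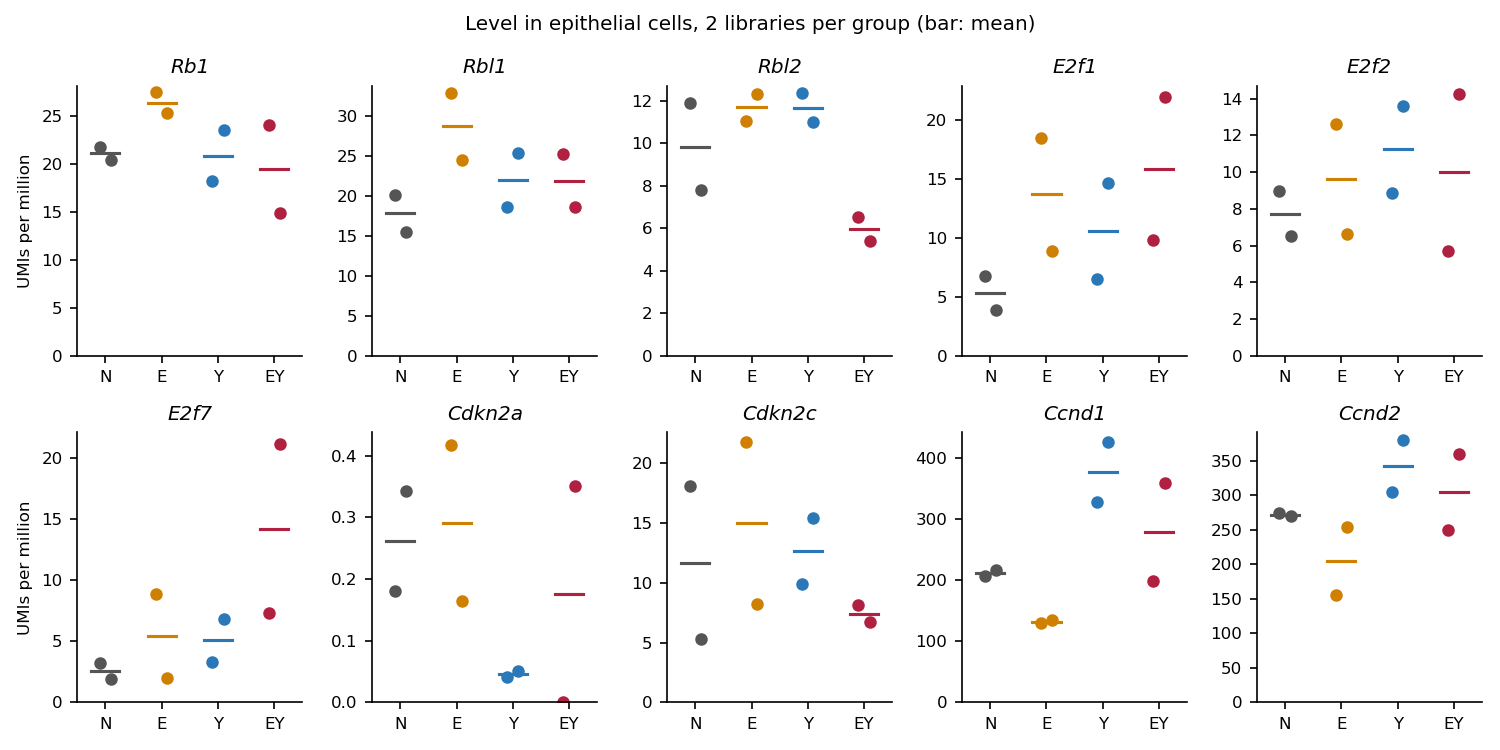
Level of each member in epithelial cells in CPM (vertical axes start at 0), by group; each point is a library and each bar the mean of the 2 libraries. Both E libraries have the lowest Ccnd1 (130 and 135 CPM) and both EY libraries the lowest Rbl2 (6.52 and 5.40 CPM), while E2f1 and E2f7 are highest in EY2.

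Among 13555 genes tested with edgeR's quasi-likelihood test on UMIs summed per library, 9 of the 10 members passed the filter on low counts. Cdkn2a did not, and has values only. The comparisons over all 8 libraries are the effect of E6-E7 (E and EY against N and Y, with YAP in the model) and the effect of YAP (Y and EY against N and E, with E6-E7 in the model). The pairwise comparisons and the interaction (whether E6-E7 acts differently with and without YAP) come from a fit with a mean per group, and a gene is called when its Benjamini-Hochberg adjusted p over all tested genes is under 0.05. Nothing says that the 2 libraries of a group are separate litters or days, so p-values measure the spread between these libraries. In bulk sums of this kind fewer cells of a type and less RNA per cell cannot be told apart.

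Sequence for the members that E2F is known to control is shown first, since Rbl1, E2f1 and E2f7 are the members with the largest positive estimates for E6-E7 below. RefSeq windows on GRCm38.p6 from 250 bases before to 50 after a gene start were held for 7 of the 10 members (Rbl1, Rbl2, E2f1, E2f2, E2f7, Cdkn2a, Cdkn2c) in 10 windows. Exact matches to 4 E2F motifs (TTTCGCGC, TTTGGCGC, TTTCCCGC, TTTGCCGC, either strand) were found in 4 of these 10, against 2.26% of all 32851 windows. They lay in Rbl1 at bases -18 to -11 from the RefSeq start and in E2f7 at -198 to -191. The Cdkn2a match was at -99 to -92 from its upstream start, and the E2f2 match at 39 to 46, after its upstream RefSeq start. That E2f2 window ends before the gene bounds given below, which are from GENCODE (chr4:136172394-136196057), so the word lies outside those bounds. The E2f1 window held none of these 4 words, which says only that the letters are not there. A CHR word (TTTGAA) was in 2 of the 10 windows against 17.9% of all, and a TEAD word (GGAATG), the site of YAP's DNA-binding partners, in 1 (Rbl1) against 14.7%. The Rbl1 stretch is chr2:157204535-157204654 on the minus strand, the E2f1 stretch chr2:154569427-154569546 on the minus strand and the E2f7 stretch chr10:110745189-110745308 on the plus strand, each of 120 bases. The first 2 end just before the RefSeq start and the E2f7 stretch spans bases -250 to -131. For E2f1 this RefSeq start lies inside the gene bounds given below, which are from GENCODE (chr2:154559407-154569892, minus strand). Its window therefore does not reach the GENCODE start. All are written 5′ to 3′ along the gene, with the matched E2F word in capitals, which in E2f7 is the reverse complement of TTTCCCGC.
Rbl1: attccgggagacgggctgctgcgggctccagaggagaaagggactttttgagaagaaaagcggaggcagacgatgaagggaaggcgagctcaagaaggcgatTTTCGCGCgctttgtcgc
E2f7: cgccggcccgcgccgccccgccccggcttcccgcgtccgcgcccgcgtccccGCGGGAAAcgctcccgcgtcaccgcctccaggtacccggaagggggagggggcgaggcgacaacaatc
E2f1: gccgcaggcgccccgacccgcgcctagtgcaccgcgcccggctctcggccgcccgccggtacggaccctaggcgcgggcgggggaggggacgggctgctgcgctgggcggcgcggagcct

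The pocket protein genes are described first. Rb1 (ENSMUSG00000022105, chr14:73183673-73325822, GRCm38, minus strand), the founding tumour suppressor of the family, read 21.8 and 20.5 CPM in N1 and N2, 27.5 and 25.3 CPM in E1 and E2, 18.2 and 23.5 CPM in Y1 and Y2, and 24 and 14.9 CPM in EY1 and EY2. Both E libraries were above the other 6, a pattern that 7.58% of tested genes shared. The log2 fold change was 0.07 (SE 0.17, adjusted p = 0.887 by edgeR) for E6-E7 and -0.21 (SE 0.17, adjusted p = 0.410) for YAP. Lpar6 and Rcbtb2 overlap it on the opposite strand.

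Rbl1 (p107, ENSMUSG00000027641, chr2:157145893-157204534, minus strand), the pocket protein that rises as cells enter the cycle, read 20.2 and 15.5 CPM in N, 32.9 and 24.5 CPM in E, 18.7 and 25.4 CPM in Y, and 25.3 and 18.6 CPM in EY. Both E libraries exceeded both N libraries, as they did for 22.4% of tested genes, with a log2 difference of 0.61 (SE 0.23, unadjusted p = 0.0329, adjusted p = 1 by edgeR), and the EY and Y libraries overlapped (log2 difference -0.01, SE 0.24).

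Rbl2 (p130, ENSMUSG00000031666, chr8:91070057-91123844, plus strand) is the pocket protein that predominates in quiescent cells. It read 11.9 and 7.77 CPM in N, 11.1 and 12.3 CPM in E, 12.3 and 11.0 CPM in Y, and 6.52 and 5.40 CPM in EY. Both EY libraries were below all 6 others, as they were for 21.5% of tested genes. The log2 difference between EY and Y was -0.98 (SE 0.25, adjusted p = 0.0913 by edgeR). That between EY and N was -0.75 (SE 0.25, adjusted p = 0.0711), and that between E and N was 0.16 (SE 0.23, adjusted p = 1). The interaction had an unadjusted p of 0.0113 and an adjusted p of 0.356 by edgeR (log2 -1.14, SE 0.34). With the upper limits on genes and UMIs lifted Rbl2 read 11.8 and 8.99 CPM in N and 10.9 and 11.6 CPM in E. Y then read 9.51 and 8.89 CPM, and EY 6.70 and 5.32 CPM. Over the alternatives other than leaving out each library, EY against Y ranged from -1.21 to -0.58 and the interaction from -1.33 to -0.65. Ptprc+ cells of the same libraries held 22.8 to 91.6 CPM of Rbl2, more than the epithelial cells in 8 of 8 libraries. The EY libraries were low there too, at 22.8 and 27.6 CPM against 52.2 to 91.6 CPM in N, E and Y. EY1 had the most immune transcripts in its epithelial gate, and their part in its Rbl2 level was not tested. Whether the low Rbl2 of EY is particular to epithelial cells was not tested.

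Of the E2F genes, E2f1 (ENSMUSG00000027490, chr2:154559407-154569892, minus strand), an activator of replication genes, read 6.80 and 3.89 CPM in N, 18.5 and 8.84 CPM in E, 6.52 and 14.6 CPM in Y, and 9.78 and 21.9 CPM in EY. Every library with a transgene but Y1 was above both N libraries. The E6-E7 effect was 0.99 on the log2 scale (SE 0.38, unadjusted p = 0.0307, adjusted p = 0.419 by edgeR). The difference between EY and N was 1.65 (SE 0.57, adjusted p = 0.0756 by edgeR), which was 0.80 without EY2. With the upper limits on genes and UMIs lifted E2f1 read 6.76 and 8.60 CPM in N and 18.3 and 12.9 CPM in E. Y then read 8.01 and 14.3 CPM, and EY 18.2 and 19.2 CPM.

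E2f7 (ENSMUSG00000020185, chr10:110745439-110787384, plus strand) encodes an atypical E2F that represses E2F targets late in S phase. Its levels were 3.25 and 1.94 CPM in N, 8.88 and 1.98 CPM in E, 3.28 and 6.86 CPM in Y, and 7.33 and 21.2 CPM in EY. E2 sat at the level of N2 while E1 was above both N libraries, and EY2 was higher than every other library. The log2 difference between EY and N was 2.54 (SE 0.77, adjusted p = 0.0562 by edgeR), which was 1.42 without EY2. The E6-E7 effect was 1.32 (SE 0.51, unadjusted p = 0.0308, adjusted p = 0.419 by edgeR). These levels moved with the upper limits on genes and UMIs. Without those limits E2f7 read 3.35 and 6.79 CPM in N and 9.19 and 4.93 CPM in E. Y then read 9.67 and 10.9 CPM, and EY 19.3 and 22.0 CPM. EY1 then held 386 UMIs of E2f7, against 18 within the limits. E2f2 (ENSMUSG00000018983, chr4:136172394-136196057, plus strand), a second activator, ranged from 5.70 CPM (EY1) to 14.3 CPM (EY2) with overlap between all groups and an E6-E7 effect of 0.12 (SE 0.31, adjusted p = 0.895).

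Of the INK4 inhibitors, Cdkn2a (ENSMUSG00000044303, chr4:89274471-89294653, minus strand) was barely detected. Its 2 products, p16 and p19ARF, share their 3′ exons, so these counts cannot tell them apart. There were 9 and 3 UMIs in N, 23 and 2 in E, 1 and 1 in Y, and 0 and 13 in EY, 52 in all. The 0 UMIs of EY1 allow up to 1.22 CPM (3 counts, counting error only). Ptprc+ cells held 0.263 to 8.03 CPM, more than the epithelial cells in 7 of 8 libraries. Cdkn2c (p18, ENSMUSG00000028551, chr4:109660876-109667189, minus strand) read 18.1 and 5.26 CPM in N, 21.7 and 8.18 CPM in E, 9.89 and 15.4 CPM in Y, and 8.15 and 6.67 CPM in EY. Within the upper limits on genes and UMIs N1 and E1 were well above N2 and E2, and all groups overlapped (E6-E7 effect -0.21, SE 0.45, adjusted p = 0.866 by edgeR). With those limits lifted Cdkn2c read 18.4 and 16.3 CPM in N and 22.7 and 17.8 CPM in E. Y then read 12.8 and 15.6 CPM, and EY 11.1 and 6.28 CPM.

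The D cyclin genes held the 1 member that passed a test. Ccnd1 (ENSMUSG00000070348, chr7:144929931-144939925, minus strand), the cyclin D that growth signals induce, read 207 and 217 CPM in N, 130 and 135 CPM in E, 328 and 428 CPM in Y, and 199 and 361 CPM in EY. Both Y libraries were above both N libraries, as for 24.0% of tested genes, and both E libraries were the lowest of all 8, as for 2.23%. Within the upper limits on genes and UMIs EY1 was near N and EY2 lay between Y1 and Y2. With those limits lifted Ccnd1 read 203 and 206 CPM in N and 127 and 124 CPM in E. Y then read 323 and 429 CPM, and EY 309 and 388 CPM. Within the limits, Ccnd1 rose with YAP by 1.0 log2 unit (SE 0.20, adjusted p = 0.0244 by edgeR's quasi-likelihood test). The adjusted p was 0.0158 to 0.0848 as each library was left out, and the call was lost without N1, E1, E2 or Y2 (log2 0.95 to 1.03). Its E6-E7 effect was -0.57 (SE 0.20, unadjusted p = 0.0202, adjusted p = 0.403) and its interaction 0.36 (SE 0.40, adjusted p = 0.746). LTO1 overlaps it on the opposite strand.

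Ccnd2 (ENSMUSG00000000184, chr6:127125162-127152193, minus strand), a second D cyclin, read 275 and 269 CPM in N, 155 and 254 CPM in E, 305 and 380 CPM in Y, and 249 and 359 CPM in EY. The order of the group means was that of Ccnd1, with E1 the lowest library. Both Y libraries were above both N libraries, as for 24.0% of tested genes. Neither the YAP effect (0.50, SE 0.20, adjusted p = 0.129 by edgeR) nor the E6-E7 effect (-0.31, SE 0.20, adjusted p = 0.537) passed.

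Counted over the members, 1 of the 9 tested (Ccnd1) was called for the YAP effect, against 8.98% of all tested genes, so the share among members is near the background. At an unadjusted p under 0.05 there were 3 of 9, against 31.4% of genes. For the E6-E7 effect 0 of 9 were called, against 0.406% of all genes by edgeR and 2.16% by DESeq2, with 3 at an unadjusted p under 0.05 (11.5% of genes). For EY against N edgeR called 0 of 9, against 18.8% of all genes, with 3 at an unadjusted p under 0.05 (39.0% of genes), and DESeq2 called 2 (E2f1 and E2f7), against 21.9% of genes by that tool. E against N (background 0.243%), Y against N (0.457%), EY against Y (0.0443%) and the interaction (0%) called 0 of 9 by either tool. DESeq2's shares of all genes for these were 0.966%, 3.37%, 6.49% and 0.657%. At an unadjusted p under 0.05 these had 2, 1, 1 and 1 members, against 3.73%, 12.2%, 23.4% and 11.5% of genes. No member separated the 4 libraries with E6-E7 from the 4 without in all epithelial cells, a pattern that 2.60% of genes showed as higher and 1.17% as lower. The median log2 fold change over the 9 members was 0.07 for E6-E7, 0.38 for YAP and 0.27 for EY against N, beside -0.03, -0.03 and -0.05 over all genes. E vs N, Y vs N and EY vs N share the N libraries, so their values are not independent of each other.

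**Figure D2:**
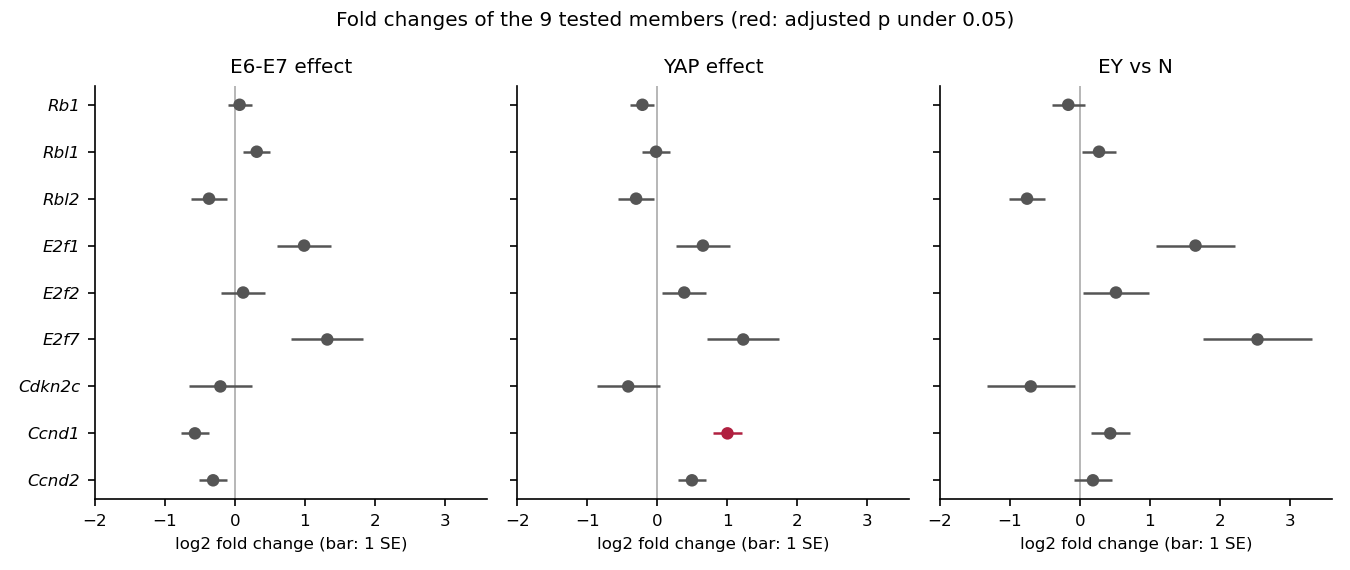
Log2 fold change of the 9 tested members (points) with 1 SE (bars) for the E6-E7 effect, the YAP effect and EY against N, from edgeR's fits on 8 libraries; red marks an adjusted p under 0.05. Ccnd1 under YAP (1.0, SE 0.20) is the 1 red point, and E2f1 and E2f7 are farthest to the right in EY against N (1.65 and 2.54).

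Because Rbl1, E2f1, E2f2, E2f7 and Cdkn2c are periodic genes, their levels were also read in cells sorted by the G2/M genes. The cells without G2/M UMIs were first an alternative setting. Their tests were made a result of their own after the data were seen. The cells without a UMI of the 12 G2/M genes after thinning were 54.3 to 69.1% of epithelial cells in N, E and Y, 41.4% in EY1 and 19.2% in EY2. This leaves cells in early S phase in the class, since the 12 genes mark late S phase to mitosis. The class may also differ in make-up between groups. Ccna2, a gene of the pathway list below, read 1.28 to 4.18 CPM in this class in N, E and Y. It read 8.92 CPM in EY1 and 35.8 CPM in EY2. The part of this in the results below was not tested. Cycling cells had more Rbl1, E2f7 and Cdkn2c than cells without G2/M UMIs in 8 of 8 libraries, with means of 32.5 against 18.6 CPM, 11.5 against 3.85 CPM and 25.4 against 6.0 CPM. The D cyclins went the other way in 6 of 8 libraries (Ccnd1 223 against 252 CPM, Ccnd2 259 against 271 CPM). The exceptions for Ccnd1 were both EY libraries (207 against 199 CPM in EY1, 395 against 266 CPM in EY2). Those for Ccnd2 were Y2 (440 against 324 CPM) and EY2 (392 against 263 CPM). These are descriptions, as the classes were cut from the same cells.

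In the cells without G2/M UMIs, E2f1 and E2f7 separated the libraries with E6-E7 from those without. E2f1 read 4.24 and 2.47 CPM in N and 5.30 and 9.16 CPM in Y, but 16.2 and 9.29 CPM in E and 9.73 and 24.6 CPM in EY, so the 4 libraries with E6-E7 were all above the 4 without, with E2 just above Y2. E2f7 read 0.596 and 0.530 CPM in N, 0.958 and 1.39 CPM in Y, 4.11 and 1.62 CPM in E, and 2.43 and 19.2 CPM in EY, again with no overlap. These rest on few molecules in the smaller libraries, with 3 UMIs of E2f7 in N2 and 3 in EY1, and 14 UMIs of E2f1 in N2 and 12 in EY1. Of the 12168 genes tested in these cells, 4.51% were higher in the 4 libraries with E6-E7 without overlap and 1.13% lower. The E6-E7 effect was 1.60 for E2f1 (SE 0.35, unadjusted p = 0.00134, adjusted p = 0.0870 by edgeR) and 2.92 for E2f7 (SE 0.60, unadjusted p = 0.000992, adjusted p = 0.0759), and neither passed the threshold. The estimates were positive in both comparisons that share no library. E2f1 differed by 1.78 (SE 0.50, unadjusted p = 0.00750, adjusted p = 0.426) between E and N and by 1.44 (SE 0.50, unadjusted p = 0.0207, adjusted p = 0.148) between EY and Y, with edgeR. E2f7 differed by 2.29 (SE 0.85, adjusted p = 0.885) and by 3.47 (SE 0.81, adjusted p = 0.0847).

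Rbl1 in these cells read 11.7 and 12.2 CPM in N, 26.4 and 23.0 CPM in E, 12.8 and 18.2 CPM in Y, and 27.6 and 16.6 CPM in EY, so EY2 fell below Y2 and the groups overlapped (E6-E7 effect 0.74, SE 0.20, adjusted p = 0.194 by edgeR). With E6-E7, Ccnd1 fell by 0.72 log2 units (SE 0.13, adjusted p = 0.0488 by edgeR), from 221 and 241 CPM in N to 148 and 149 CPM in E, and from 357 and 430 CPM in Y to 199 and 266 CPM in EY. Ccnd1 is the 1 member of 9 called for E6-E7 in these cells, against 0.945% of genes, and the call was lost as any library but EY2 was left out (adjusted p 0.0392 to 0.208, log2 -0.84 to -0.64). It was also the 1 member of 9 called for YAP in these cells, higher by 0.75 (SE 0.13, adjusted p = 0.0166), against 6.54% of genes. This call was lost without N1, E1, E2 or Y2 (adjusted p 0.0576 to 0.0709, log2 0.69 to 0.75). Ccnd2 was lower in all 4 libraries with E6-E7 (180 to 267 CPM) than in the 4 without (275 to 324 CPM), as for 1.13% of genes. Its effect was -0.37 (SE 0.13, adjusted p = 0.340 by edgeR). Between EY and N, E2f1 rose by 2.43 (SE 0.52, adjusted p = 0.0285) and E2f7 by 4.45 (SE 0.88, adjusted p = 0.0234), 2 of 9 members against 13.7% of genes. Both calls were lost without N1, N2 or EY2, and without EY2 the values were 1.38 for E2f1 and 2.0 for E2f7.

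In the cycling cells of the same libraries E2f1 read 11.4 and 9.57 CPM in N, 19.1 and 4.79 CPM in E, 8.52 and 20.1 CPM in Y, and 10.9 and 19.9 CPM in EY, so the groups overlapped. E2f7 read 9.46 and 5.98 CPM in N, 16.6 and 4.26 CPM in E, 9.84 and 15.2 CPM in Y, and 9.35 and 21.5 CPM in EY. The libraries with and without E6-E7 overlapped. Whether the effect of E6-E7 differs between the 2 classes of cells was not tested.

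**Figure D3:**
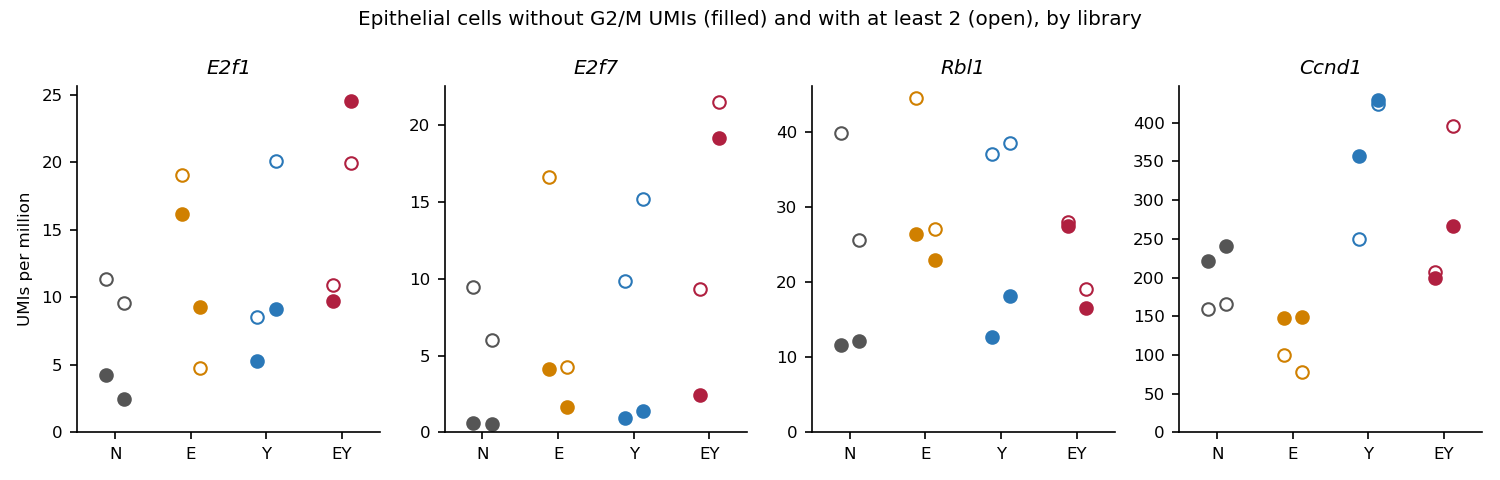
Level of E2f1, E2f7, Rbl1 and Ccnd1 in CPM (axes start at 0) in epithelial cells without a UMI of the 12 G2/M genes (filled) and with at least 2 (open), by group; each point is a library. The filled points of E and EY lie above those of N and Y for E2f1 (9.29 to 24.6 against 2.47 to 9.16 CPM) and E2f7 (1.62 to 19.2 against 0.530 to 1.39 CPM), and the open points overlap.

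The other genes of the pathway were read as 2 lists, 27 genes of the RB-E2F machinery and 20 replication genes that E2F is known to activate. For the YAP effect 3 of the 27 were called (background 8.98%). Cdk6, the partner kinase of the D cyclins, rose by 1.57 (SE 0.37, adjusted p = 0.0383 by edgeR), from 12.2 to 29.2 CPM in N and E to 40.0 and 63.8 CPM in Y and 42.4 and 91.9 CPM in EY. E2f3, an activator E2F, rose by 0.71 (SE 0.18, adjusted p = 0.0448). Cdkn2b (p15), the INK4 inhibitor that neighbours Cdkn2a, fell by 1.08 (SE 0.23, adjusted p = 0.0270), from 3.55 to 6.17 CPM in N and E to 1.63 to 2.62 CPM in Y and EY. Leaving out 1 library took this count to between 0 and 6, with none left without N1, N2, E1, Y2 or EY1 and 6 without Y1, where 12.2% of all genes were called.

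For EY against N, 5 of the 27 were called against 18.8% of genes. Mybl2 (B-MYB), an E2F target that works with the LIN9 complex, rose by 2.58 (SE 0.74, adjusted p = 0.0494 by edgeR). Cdkn1c (p57), a CDK inhibitor, rose by 1.71 (SE 0.43, adjusted p = 0.0361), the repressor E2f6 by 1.59 (SE 0.40, adjusted p = 0.0357) and E2f3 by 1.23 (SE 0.23, adjusted p = 0.0187), while Cdkn2b fell by 1.43 (SE 0.33, adjusted p = 0.0275). The list's median was 0.66 beside -0.05 over all genes, and without N1, N2 or EY2 none was called, with 12 called without EY1, where 28.5% of all genes were.

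For the E6-E7 effect in all epithelial cells, edgeR called 0 of the 27 (6 at an unadjusted p under 0.05, 1 called by DESeq2). It called 0 of the 20 replication genes (11 at an unadjusted p under 0.05, 7 called by DESeq2). Over all genes 11.5% had an unadjusted p under 0.05 and DESeq2 called 2.16%. All 20 had a positive estimate, with a median of 0.90 beside -0.03 over all genes. The 3 with the largest estimates were Mcm3, Cdc6 and Mcm2, which load or form the replicative helicase. Mcm3 read 29.9 and 13.7 CPM in N, 97.4 and 46.9 CPM in E, 35.2 and 73.0 CPM in Y, and 103 and 170 CPM in EY (effect 1.52, SE 0.35, adjusted p = 0.182), so that of the 4 libraries without E6-E7 only Y2 exceeded any of those with it. In EY against N 8 of the 20 were called, all higher (background in that direction 9.31%), namely Mcm2 to Mcm7, Cdt1 and Hells, and 0 were without N1, N2 or EY2.

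In the cells without G2/M UMIs the replication genes separated by E6-E7. The 4 libraries with E6-E7 were all above the 4 without for 13 of the 20, against 4.51% of genes. In all epithelial cells and in cycling cells this held for 0 of 20. For the E6-E7 effect 11 of the 20 were called, all higher (background 0.912%), with a median of 1.77 over the list beside -0.03 over all genes. Mcm3 rose by 2.26 (SE 0.32, adjusted p = 0.0260 by edgeR), from 8.47 to 44.3 CPM without E6-E7 to 46.9 to 175 CPM with it. Mcm2 rose by 1.78 (SE 0.25, adjusted p = 0.0260), and Cdc6 had an estimate of 2.91 (SE 0.64, adjusted p = 0.0948). Of the 27 machinery genes 5 were called, all higher (Cdk2, Cdkn1c, Ccne1, Ccne2 and E2f8). E2f8, the close relative of E2f7, rose by 2.61 (SE 0.44, adjusted p = 0.0385), from 0.530 to 2.39 CPM without E6-E7 to 3.25 to 18.4 CPM with it. Cyclin E1, which with CDK2 carries cells into S phase, rose by 2.47 (Ccne1, SE 0.43, adjusted p = 0.0421). With 1 library left out the count of called replication genes was 10 without E2 or EY1, 4 without Y2, and 0 without N1, N2, E1, Y1 or EY2, where 0.0314 to 0.635% of all genes were called. It was 19 with the upper limits on genes and UMIs lifted, where 1.88% of all genes were called. In that fit E2f1 (1.61, adjusted p = 0.00740), Rbl1 (0.75, adjusted p = 0.0490) and Ccnd1 (-0.59, adjusted p = 0.0392) were called for the E6-E7 effect by edgeR, an alternative chosen after seeing the data.

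**Figure D4:**
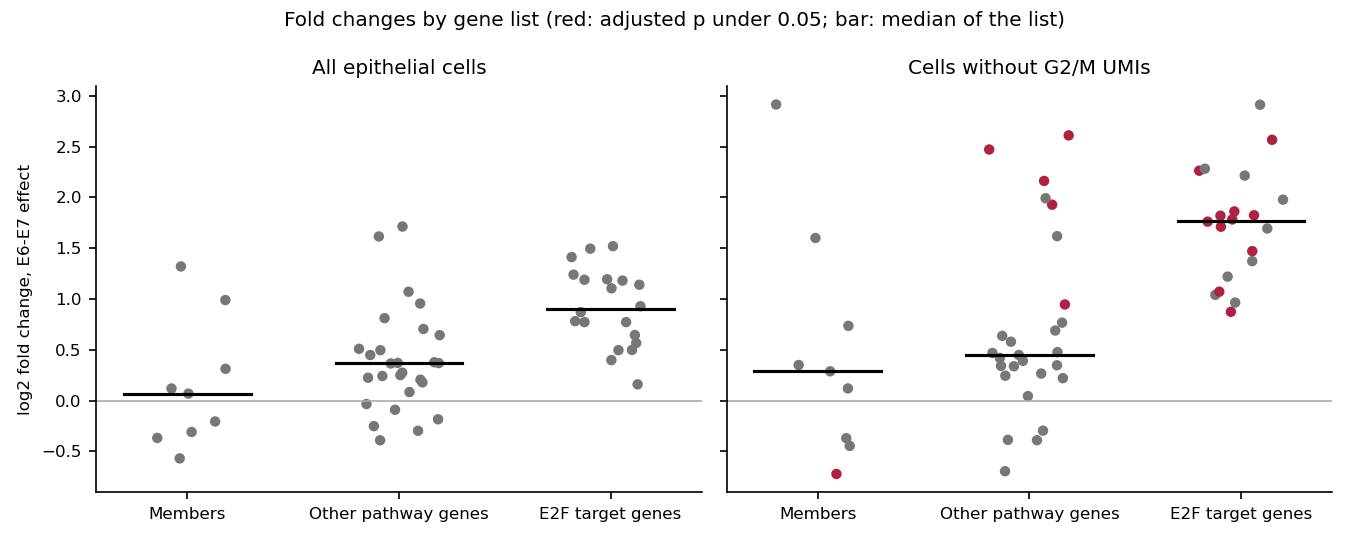
Log2 fold changes of the E6-E7 effect for the 9 tested members, the 27 other pathway genes and the 20 E2F target genes (points, spread sideways for clarity) in all epithelial cells and in those without G2/M UMIs; bars are list medians and red marks an adjusted p under 0.05. The median of the target genes is 0.90 on the left with 0 called and 1.77 on the right with 11 called, and Ccnd1 is the red member below 0.

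Within the epithelium the members differed by layer. Basal cells (more UMIs from Krt5, Krt14 and Krt15 than from Krt13 and Krt4) were 86.3 to 95.6% of the epithelial cells. Rbl1 (mean 23.7 against 12.9 CPM), Ccnd1 (256 against 188 CPM) and Ccnd2 (303 against 80.6 CPM) were higher in basal than in suprabasal cells in 8 of 8 libraries, and Rb1 was higher in suprabasal cells in 8 of 8 (29.8 against 21.2 CPM). The suprabasal class held only 16 cells in EY1 and 31 in N2. These had 1 and 2 UMIs of Rbl1 and 6 and 12 UMIs of Rb1, so the order there rests on few molecules. In suprabasal cells E2f1 read 3.30 and 2.58 CPM in N, 2.18 and 10.0 CPM in Y, 19.9 and 14.1 CPM in E, and 7.19 and 21.0 CPM in EY. These levels rest on 26 and 1 UMIs of E2f1 in N, 6 and 29 in Y, 157 and 11 in E, and 1 and 33 in EY. No order of the groups is read from them.

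Against Ptprc+ cells with few keratin UMIs in the same libraries, Ccnd1 was higher in epithelial cells in 8 of 8 libraries (mean 251 against 49.6 CPM) and Rbl2 lower in 8 of 8 (9.79 against 56.3 CPM). At 2000 UMIs per cell 19.7 to 44.8% of epithelial cells held a UMI of Ccnd1 (62.7 to 89.0% unthinned) and 1.17 to 13.1% of Ptprc+ cells did, with median depths of 12575 to 23570 and 3372.5 to 10871 UMIs. For E2f7 the shares were 0.466 to 4.09% and 0.130 to 0.879%. In 5 of the 8 libraries (N1, N2, E2, Y1 and Y2, 0.466 to 0.799%) the epithelial share was within the range of the Ptprc+ cells. This share alone cannot tell it from background there. Unthinned, at the unequal depths above, the E2f7 shares were 3.37 to 28.2% and 0.528 to 2.28%. E2f7 was also higher in cycling epithelial cells than in those without G2/M UMIs in 8 of 8 libraries. For Cdkn2a they were 0 to 0.123% and 0 to 1.93%, so the epithelial share is read as background.

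**Figure D5:**
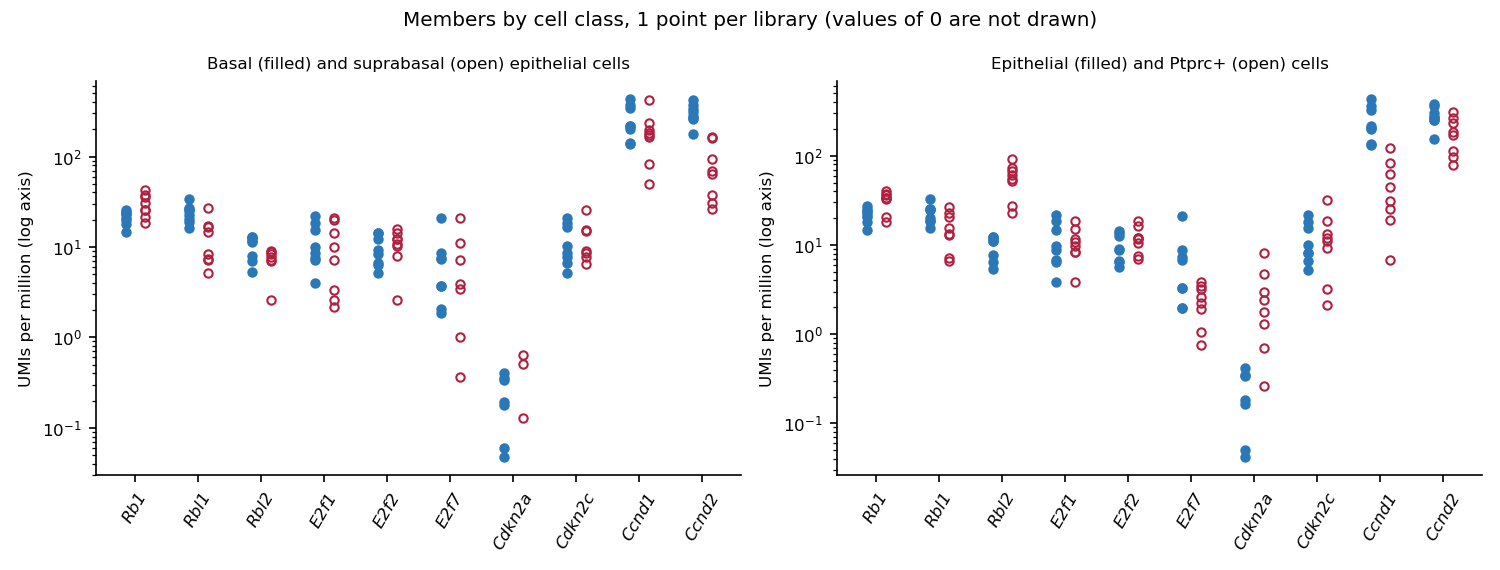
Level of each member in CPM (log axis) in basal and suprabasal epithelial cells (left) and in epithelial and Ptprc+ cells (right); each point is 1 of the 8 libraries and values of 0 are not drawn. Ccnd2 is lower in suprabasal cells (26.4 to 165 CPM against 177 to 417 CPM in basal cells), and Rbl2 is higher in Ptprc+ cells (22.8 to 91.6 CPM against 5.40 to 12.3 CPM).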

How the data were processed

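UMI counts per gene and cell barcode were deposited as 1 matrix per library, made by the authors with Cell Ranger (version 5.0.0 in the file headers) on mm10, and are whole numbers. The labels name the v2 kit and the study's methods v3.1 chemistry. Groups came from the labels. The study's cell limits were applied (1000 to 5500 genes, up to 30000 UMIs, up to 7% mitochondrial), and no doublet caller was used. Basal, suprabasal and Ptprc+ classes (at least 1 Ptprc UMI, keratins under 0.5%) and the 2 cell cycle classes were cut from UMIs, the latter after thinning to 2000 UMIs (seed 1, at most 2 shallower cells per library left out). The members, the pathway list (27 genes), the E2F target list (20 genes) and all marker lists were chosen with earlier results of these data known.

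UMIs were summed per library (2454816 to 55154619 epithelial UMIs) and tested with the quasi-likelihood test of edgeR 4.0.16 in R 4.3.3, after filterByExpr and with TMM factors of 0.953 to 1.04, adjusting over all tested genes by Benjamini-Hochberg. The code was tested on simulated data. Each SE is the size of the log2 fold change divided by the root of F. CPM scale a class's UMIs to 1000000 per library. Alternatives were DESeq2 1.42.0, no low-count filter, other cell limits, cells without G2/M UMIs and leaving out each library. Reporting the cells without G2/M UMIs as a result of their own was decided after seeing the data. Their refits with the upper limits lifted or a library left out were added then too. Intervals and floors (3 counts) cover counting error only. All members are named, with pathway genes called in a contrast (largest first, at most 6 per contrast), the 3 E2F targets of largest E6-E7 effect and Yap1. Ccna2, Mcm4 to Mcm7, Cdt1 and Hells were named after their values were seen. Gene positions are from GENCODE on GRCm38. Python 3.11.15, pandas 2.3.3 and matplotlib 3.10.9 were used.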

Additional observations from a re-analysis of the deposited data

How the results depend on the processing

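For the E6-E7 effect, the YAP effect, E against N, Y against N, EY against N, EY against Y and the interaction, the main counts over all genes were 55, 1217, 33, 62, 2550, 6 and 0. DESeq2 gave 293, 2762, 131, 457, 2963, 880 and 89, and no low-count filter 765, 3250, 367, 1208, 4273, 2117 and 672. With the upper limits lifted they were 36, 6131, 66, 1504, 6042, 669 and 20, with keratins at 2% or more 99, 1234, 45, 198, 3347, 1046 and 0, and with a minimum of 200 genes 45, 1351, 29, 51, 2818, 163 and 0. In cells without G2/M UMIs they were 115, 796, 37, 28, 1664, 8 and 0, and with at most 2 immune UMIs per cell, where EY1 had no cell left and was dropped, 6, 697, 9, 93, 3047, 519 and 0. Leaving out 1 library gave 1 to 36, 324 to 1707, 0 to 29, 0 to 98, 5 to 4061, 0 to 1456 and 0 to 30.

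Each count of members called, of 9 or 10 tested, is followed by the share of all genes called in the same fit. For the YAP effect it was 1 (8.98%), but 3 with no low-count filter (14.9%), 4 without upper limits (41.4%), and 0 to 1 as a library was left out. For EY against N the main count was 0 (18.8%), with 2 by DESeq2 (21.9%), 2 with no low-count filter (19.7%), 5 without upper limits (40.8%), 1 with a minimum of 200 genes (20.7%), 2 with keratins at 2% (26.7%), 2 in cells without G2/M UMIs (13.7%), 1 with at most 2 immune UMIs (24.4%), and 0 to 3 as a library was left out. For E6-E7 the main count was 0 (0.406%), with 3 under no low-count filter (3.52%) and 1 in cells without G2/M UMIs (0.945%). Under no low-count filter E against N gave 2 (1.69%), Y against N 2 (5.56%) and EY against Y 2 (9.74%). Y against N gave 1 without upper limits (10.2%) and EY against Y 2 with keratins at 2% (8.34%). Leaving out a library gave 0 for E6-E7 and for each of these 3, and the interaction gave 0 throughout. The cause of these moves was not tested.

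Small estimates changed sign. For E6-E7, Cdkn2c went from -0.21 to 0.014 with keratins at 2% and 0.29 in cells without G2/M UMIs, and ranged from -0.70 to 0.053 with 1 library left out. Rbl1 under YAP went from -0.02 to 0.12 in cells without G2/M UMIs and 0.022 with at most 2 immune UMIs, and ranged from -0.16 to 0.13 with 1 library left out. With 1 library left out Rb1 ranged from -0.0086 to 0.23 and E2f2 from -0.14 to 0.32 for E6-E7, Cdkn2c from -0.75 to 0.016 for YAP, and Ccnd1 in cells without G2/M UMIs from -0.29 to 0.23 for EY against N. The other listed estimates kept their sign, and Ccnd1 under YAP stayed called under each alternative that kept all libraries or dropped EY1 for its cells (0.75 to 1.24).

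No paired analysis was possible because the labels give no replicate numbers that pair libraries across groups. With 2 libraries per group, EY1 holding 170 cells and EY2 having 61.8% cycling cells, differences in low genes such as E2f7 rest on few molecules.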
